A study of Mus musculus with 32 samples.

Results

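The genes followed here are 40 cell proliferation genes, of which 39 were measured in blood and cerebellum of Fmr1-KO, Tsc2+/- and WT mice. The 40 genes were taken from a list of genes that dividing cells use, and a gene was measured where at least 1 probe set of the array carried its symbol and no other. Such probe sets covered 19938 genes in all, and Ccnb1 was the listed gene without one, so it is not analysed here. Where a gene had several probe sets, the one with the highest mean log2 intensity over all 32 arrays stood for it. Each mouse gave 1 array from whole blood and 1 from cerebellum. The Fmr1 experiment held 5 Fmr1-KO mice and 5 WT mice, congenic on C57BL/6. The Tsc2 experiment held 3 Tsc2+/- mice and 3 WT mice of a mixed 129/SvJae-C57BL/6J background, in which 1 allele of Tsc2 is lost because mice without both die as embryos. All mice were young adults, no treatment is given for any group, and both alleles are germline, so they are present in every tissue. Strain and experiment coincide, so they cannot be told apart.

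A cell that divides first loads the Mcm2 to Mcm7 helicase on its origins with the help of Cdc6 and Cdt1, a step called licensing, and then copies its DNA with enzymes such as ribonucleotide reductase and thymidylate synthase. It enters mitosis under the kinase Cdk1 with its cyclins, and separates its chromosomes with the mitotic kinases, the spindle checkpoint and the motors of the spindle. The E2F factors drive many of the licensing and synthesis genes, and a repressor complex holds the mitotic genes off in resting cells through an element known as the CHR. In adult mice most circulating white cells and nearly all cerebellar neurons are no longer dividing, while precursors in marrow, spleen and thymus divide rapidly, and young red cells that have left the marrow still carry RNA. The measured genes fell into a set of 5 made up of cyclins and Cdk1, 8 licensing genes, 4 genes of DNA synthesis and nucleotide supply, 2 E2F factors, 8 mitotic kinases and checkpoint genes, 10 genes of spindle, centromere and cytokinesis, and 2 chromosome proteins, Mki67 and Top2a.

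The promoters of these genes differed by role in the short elements they held. RefSeq windows of 300 bases (GRCm38.p6, 250 before the start of transcription and 50 after it) were available for 33 of the 39 genes. Both strands were searched for 4 spellings of the E2F element (TTTGGCGC, TTTCGCGC, TTTCCCGC and TTTGCCGC), for the CHR (TTTGAA) and for the CCAAT box. An E2F spelling was found for 7 of the 33 genes, against 2.6% of 27025 genes with a window and 2.26% of all 32851 windows. These 7 were 6 of the 7 licensing genes with a window and Cdk1. The CHR was found for 16 of the 33, against 20.2% of all genes and 17.9% of all windows. It was present for 5 of 7 mitotic kinases and checkpoint genes, 5 of 8 spindle genes and both chromosome proteins, but for 1 of 7 licensing genes. CCAAT was found for 25 of the 33, against 41.1% of all genes and 37.4% of all windows. A match is a description of the letters in a window and not evidence of binding.

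The 200 bases before the start are shown for 6 genes on which the results below turn: 2 licensing genes, the mitotic kinase Cdk1, the chromosome proteins Top2a and Mki67, and Nusap1, whose blood pattern departed from the rest. Each is read 5′ to 3′ on the strand of its gene, in lower case, with E2F spellings, CHR and CCAAT on either strand in capitals. In Mcm5 and Mcm6 an E2F spelling on one strand overlaps one on the other strand, so that a run of capitals is longer than a single element. The windows lie at chr8:75109309-75109508 (plus strand) for Mcm5, chr1:128359706-128359905 (minus) for Mcm6, chr10:69352913-69353112 (minus) for Cdk1, chr11:99024190-99024389 (minus) for Top2a, chr7:135716380-135716579 (minus) for Mki67 and chr2:119618098-119618297 (plus) for Nusap1. The Cdk1 window held both an E2F spelling and the CHR, the windows of Mcm5 and Mcm6 held the E2F spelling without the CHR, and those of Top2a and Mki67 held the CHR without the E2F spelling. The Nusap1 window held none of the 3. The same was true of the windows of Ccne1, Tyms, E2f1, Mad2l1 and Birc5, so this is not particular to Nusap1. Ccne2, whose blood pattern also departed from the rest, had no window.
Mcm5: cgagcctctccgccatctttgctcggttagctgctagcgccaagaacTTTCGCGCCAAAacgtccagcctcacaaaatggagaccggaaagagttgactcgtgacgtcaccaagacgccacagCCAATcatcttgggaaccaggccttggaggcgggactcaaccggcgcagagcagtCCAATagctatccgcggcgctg
Mcm6: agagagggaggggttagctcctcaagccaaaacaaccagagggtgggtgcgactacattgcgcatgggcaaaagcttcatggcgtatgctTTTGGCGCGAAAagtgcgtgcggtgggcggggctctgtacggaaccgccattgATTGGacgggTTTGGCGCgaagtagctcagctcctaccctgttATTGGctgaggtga
Cdk1: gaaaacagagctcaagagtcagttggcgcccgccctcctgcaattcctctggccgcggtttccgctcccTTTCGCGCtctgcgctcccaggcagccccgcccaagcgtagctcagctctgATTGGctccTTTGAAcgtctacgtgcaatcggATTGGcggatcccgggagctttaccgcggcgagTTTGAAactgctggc
Top2a: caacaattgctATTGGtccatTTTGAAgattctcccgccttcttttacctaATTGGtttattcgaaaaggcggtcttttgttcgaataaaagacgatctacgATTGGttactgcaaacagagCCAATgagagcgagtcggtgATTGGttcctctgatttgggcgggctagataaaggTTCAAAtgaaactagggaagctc
Mki67: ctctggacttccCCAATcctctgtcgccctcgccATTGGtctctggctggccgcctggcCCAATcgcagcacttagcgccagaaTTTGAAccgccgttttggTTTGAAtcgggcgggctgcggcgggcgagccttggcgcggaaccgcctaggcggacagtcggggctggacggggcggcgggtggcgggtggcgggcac
Nusap1: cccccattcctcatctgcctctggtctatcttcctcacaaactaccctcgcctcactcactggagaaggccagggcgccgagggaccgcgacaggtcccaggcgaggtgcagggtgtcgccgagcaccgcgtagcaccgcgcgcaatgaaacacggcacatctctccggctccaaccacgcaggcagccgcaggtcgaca

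The arrays were first checked against their labels. Fmr1 intensity was 169 to 263 in Fmr1-KO blood against 335 to 660 in WT blood, and 142 to 306 in Fmr1-KO cerebellum against 832 to 917 in WT cerebellum. Tsc2 was 713 to 1000 in Tsc2+/- cerebellum against 1110 to 1176 in WT cerebellum, while in blood the ranges overlapped at 621 to 890 in Tsc2+/- mice and 731 to 1008 in WT mice. The 11 neuronal marker genes summed to 61788 to 79957 in cerebellum and 146 to 1306 in blood, and the 15 red cell genes to 4065 to 6045 in cerebellum and 32170 to 79194 in blood. The labels give every mouse as female while the study's methods give males, and Xist read 17.3 to 62.6 in blood beside 226 to 875 for the Y-linked Eif2s3y. In cerebellum Xist read 44.5 to 106 beside 403 to 835 for Eif2s3y. The Y-linked gene was thus above Xist on every array, as in the males of the methods and unlike the labels. The median of all 35556 probe sets was 181 to 257 on cerebellum arrays and 134 to 186 on blood arrays. The blood array of Tsc2 WT mouse 3 stood apart: its median over the 39 genes was 1768, whereas the other 15 blood arrays gave 327 to 557. Counts of called genes and medians over the 39 genes that use this array are therefore given with and without it. Tissue differences of single genes and correlations with marker genes in the Tsc2 experiment are given with it only.

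The proliferation genes read lower in cerebellum than in blood in both experiments. Of the 39 genes, 34 were lower and 1 was higher in cerebellum of the Fmr1 experiment (limma, unadjusted p under 0.01, the threshold used throughout; 64.3% of all probe sets passed it in either direction, 18.2% lower and 46.1% higher). In the Tsc2 experiment 35 were lower and none was higher (50.6% of all probe sets in either direction, 22.7% lower and 27.9% higher), and 36 were lower without the array of WT mouse 3 (51.3% in either direction, 22.1% lower and 29.2% higher). The median log2 difference, cerebellum minus blood, was −1.8 over the genes against 0.52 over all probe sets in the Fmr1 experiment. In the Tsc2 experiment it was −2.5 against 0.03, or −2.12 against 0.07 without that array. In bulk tissue, fewer cells of a type and less RNA per cell cannot be told apart.

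**Figure D1:**
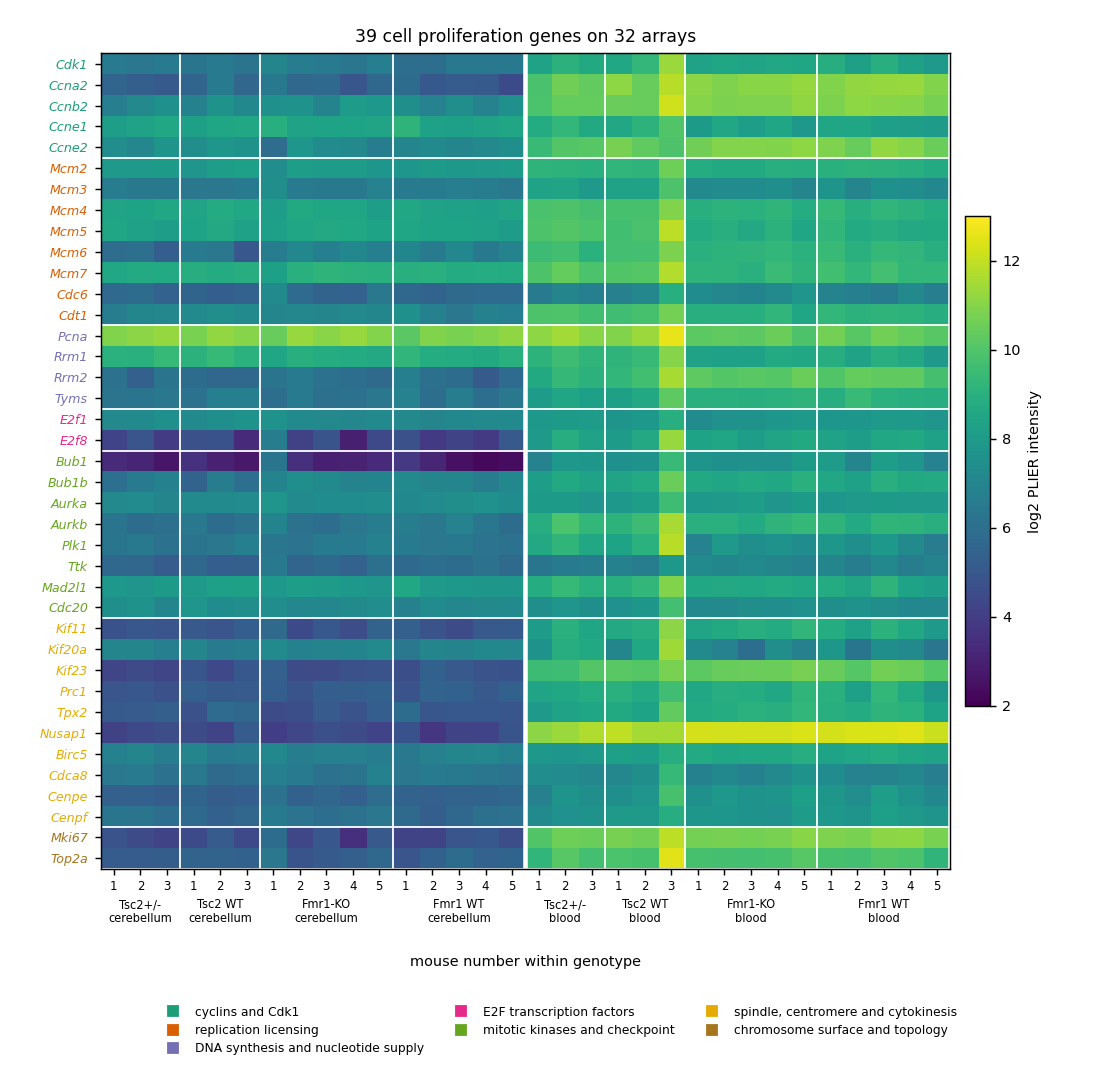
Log2 intensity (colour) of each of the 39 cell proliferation genes (rows, grouped by role) on each of the 32 arrays (columns). Cerebellum arrays read low for most genes, Pcna and Ccne1 are similar in both tissues, and the blood array of Tsc2 WT mouse 3 is high in nearly every row.

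Nusap1 differed most between the tissues in both experiments. This gene, which bundles spindle microtubules, had a lowest, median and highest intensity of 13.4, 20.7 and 36.4 over 16 cerebellum arrays and of 2190, 4853 and 5571 over 16 blood arrays. Its log2 difference was −7.94 (SE 0.12, 10 arrays of each tissue, adjusted p 1.92e-20) in the Fmr1 experiment, against −7 (SE 0.17, 6 of each, adjusted p 4.89e-11) in the Tsc2 experiment, in limma with Benjamini-Hochberg adjustment over all probe sets. The tissues did not overlap on any array for this gene. Mki67, the antigen that coats mitotic chromosomes, gave 11.2, 23.9 and 59 in cerebellum and 1019, 1740 and 3873 in blood, with differences of −6.18 (SE 0.21) in the Fmr1 experiment, beside −6.12 (SE 0.26) in the Tsc2 experiment. Ccna2, the cyclin of S phase and early mitosis, gave 22.4, 48.5 and 90.6 in cerebellum and 923, 2093 and 3645 in blood, with differences of −5.67 (SE 0.18) in the Fmr1 experiment, against −5.07 (SE 0.25) in the Tsc2 experiment. The gap was not tested between experiments, and for Nusap1 it was wider in the Fmr1 experiment by more than the SEs. Kif23, a motor needed for cytokinesis, differed by −5.56 (SE 0.13) in the Fmr1 experiment, beside −5.46 (SE 0.16) in the Tsc2 experiment. Top2a, the topoisomerase that untangles sister chromatids, gave 29.1, 42.8 and 82.1 in cerebellum and 580, 886 and 5802 in blood. Its differences were −4.33 (SE 0.17) in the Fmr1 experiment, against −4.87 (SE 0.42) in the Tsc2 experiment. Cdk1, the kinase that triggers mitosis, differed less, by −2.01 (SE 0.13) in the Fmr1 experiment, beside −2.79 (SE 0.42) in the Tsc2 experiment. For Nusap1, Mki67, Ccna2, Kif23, Top2a and Cdk1 alike, every cerebellum array lay below every blood array.

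The size of this difference also varied by role, which was not tested. In the Fmr1 experiment the median was −5.25 for the 2 chromosome proteins, −3.53 for the cyclins and Cdk1, −2.78 for the genes of spindle, centromere and cytokinesis, −2.22 for the E2F factors, −1.2 for DNA synthesis, −1.05 for the mitotic kinases and checkpoint genes and −0.82 for licensing. In the Tsc2 experiment the medians were −5.49 for the chromosome proteins, −2.79 for the cyclins and Cdk1, −2.94 for the spindle genes, −2.61 for the E2F factors, −1.34 for DNA synthesis, −1.96 for the mitotic kinases and checkpoint genes and −1.73 for licensing. Leaving out the blood array of Tsc2 WT mouse 3 gave, in the same order, −5.17, −2.68, −2.59, −2.27, −1.05, −1.65 and −1.42. Mcm5 differed by −0.41 (SE 0.1) in the Fmr1 experiment, beside −1.85 (SE 0.32) in the Tsc2 experiment, and Mcm6, a subunit of the same ring, by −2.29 (SE 0.11) in the Fmr1 experiment, against −3.89 (SE 0.31) in the Tsc2 experiment. Few genes did not read lower in cerebellum. Pcna, the sliding clamp that holds the polymerase on DNA, was the gene called higher in cerebellum of the Fmr1 experiment, with 1158 to 2553 in cerebellum and 969 to 6455 in blood over both experiments. Its difference was 0.57 (SE 0.14) there and −0.39 (SE 0.26, not called) in the Tsc2 experiment, and it was 0.03 with a p of 0.861 in limma when each array was centred on its own median, so its direction rests on the scaling. A further 3 genes passed in neither experiment. Ccne1, the cyclin that starts S phase, differed by 0.24 in the Fmr1 experiment, beside −0.68 in the Tsc2 experiment. Rrm1, the large subunit of ribonucleotide reductase, differed by 0.32 in the Fmr1 experiment, against −0.45 in the Tsc2 experiment. Cdc20, which activates the anaphase-promoting complex, differed by −0.17 in the Fmr1 experiment, beside −0.5 in the Tsc2 experiment. Their tissue ranges overlapped. Kif20a, a motor of the midzone, gave 0.04 in the Fmr1 experiment and was lower by 1.88 on the log2 scale in the Tsc2 experiment. Top2a and Pcna each had a second probe set. The 2 of Pcna read alike, at medians of 2027 and 1985 in cerebellum and 1551 and 1531 in blood. The second of Top2a read 16.5 to 51.2 in cerebellum and 0.00111 to 30.3 in blood, which is the opposite order of tissues at near-background intensity.

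Several mitotic genes were close to the bottom of the array's range in cerebellum. Bub1, a kinase of the spindle checkpoint, lay under an intensity of 16 on 15 of 16 cerebellum arrays, E2f8, an E2F factor that acts as a repressor, on 5, and Mki67 and Nusap1 on 1 each. No gene lay under 16 on any blood array. Differences that rest on such low values can be imprecise. Bub1 had an SE of 0.36 in the Fmr1 experiment beside its difference of −4.29. Its cerebellum values there were 76.4 in Fmr1-KO mouse 1 and 7.85 to 11.5 in the other Fmr1-KO mice. The SE of Nusap1, also dim in cerebellum, was smaller.

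The array of Tsc2 WT mouse 3 had the highest blood intensity of all 16 mice for 37 of the 39 genes, where 25.1% of all probe sets had their highest value on it. The median ratio of this mouse to the mean of the other 2 Tsc2 WT mice was 3.25 over the 39 genes and 1.16 over all probe sets. The ratio exceeded 2 for 32 genes, against 11.8% of all probe sets. Kif20a read 2734 in this mouse and 262 as the mean of the other 2, a ratio of 10.4. Plk1, the kinase that matures centrosomes and starts mitotic exit, read 3616 against 428, a ratio of 8.45, and E2f8 read 2525 against 333, a ratio of 7.57. Top2a stood at 5802 against 920 and Cdk1 at 2616 against 502. The increase thus spanned motors, kinases, the E2F factors and the chromosome proteins. Genes at the other end were Birc5 (survivin, part of the chromosomal passenger complex) and Kif23, with ratios of 1.58 and 1.55. Nusap1 and Ccne2, the second E-type cyclin, were the exceptions: Nusap1 read 2956 in this mouse, 13th of the 16, and Ccne2 read 961, 15th of the 16, with ratios of 0.859 and 0.646.

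**Figure D2:**
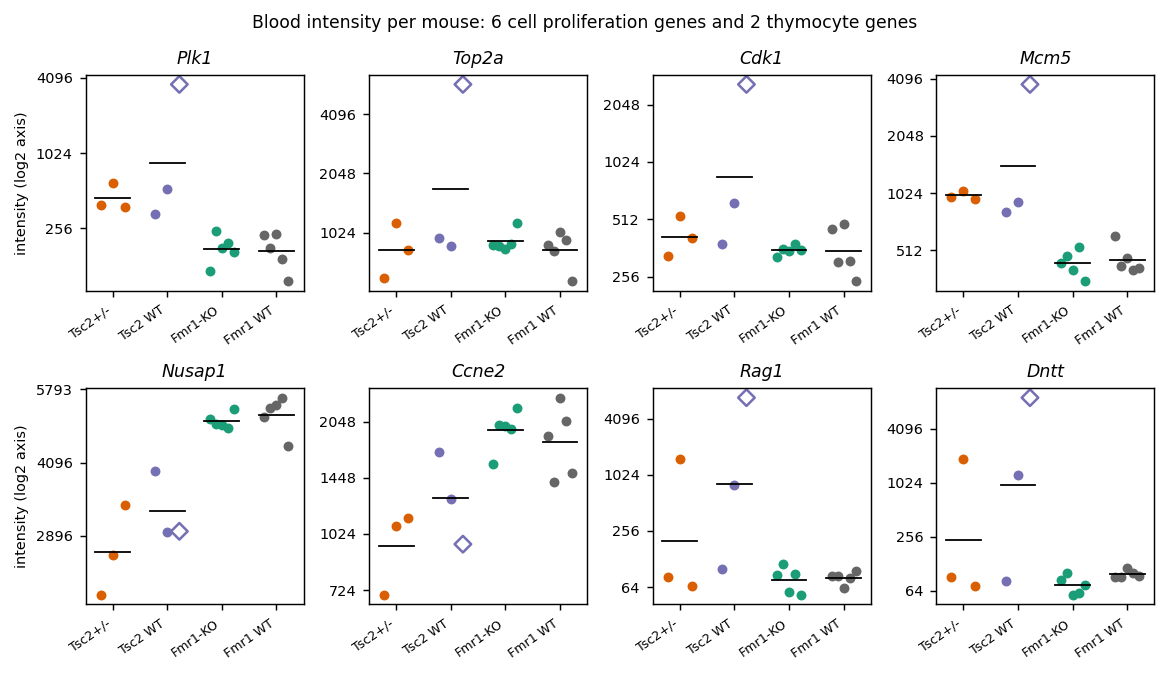
Blood intensity (log2 axis) of 6 cell proliferation genes and 2 thymocyte genes, 1 point per mouse with a bar at the group's geometric mean; the open diamond is Tsc2 WT mouse 3. That mouse reads 3616 for Plk1, 5802 for Top2a and 2616 for Cdk1, the highest of all 16 mice, but 2956 for Nusap1 and 961 for Ccne2, among the lowest.

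Genes of immature T cells were high in the same blood array. Rag1, which cuts antigen receptor genes, read 6851, Dntt, which adds bases at the joins, read 9131, and Ptcra, the partner of the early T cell receptor, read 1241. Cd4 and Cd8a, the co-receptors that most thymocytes carry together, read 5390 and 9494. None of these is a gene of the cell cycle. The 11 thymocyte genes, a list chosen after values were seen, summed to 57795 in this array, with none under an intensity of 16. They summed to 15260 in Tsc2+/- mouse 2, 13501 in Tsc2 WT mouse 2 and 6536 to 9037 in the other 3 mice of that experiment, and to 2976 to 4926 over the 10 Fmr1 mice. The platelet genes summed to 1633 in WT mouse 3 and 2306 in Tsc2+/- mouse 2, and to 21111 to 32840 in the other 4 Tsc2 mice. The 5 thymic epithelium genes summed to 940 in WT mouse 3, within the 705 to 1439 of all blood arrays and the 635 to 1338 of cerebellum. After WT mouse 3 was set aside, Tsc2+/- mouse 2 and Tsc2 WT mouse 2 were the 2 highest of the other 5 Tsc2 blood arrays for 17 of the 39 genes, against 12.1% of all probe sets. The part of these cells in the proliferation values was not tested.

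No cell proliferation gene passed the threshold between Tsc2+/- and WT blood, although all 39 differences were below 0 (0.298% of all probe sets passed, and 57.1% of them lay above 0). No gene reached an unadjusted p of 0.05 in limma either (2.14% of all probe sets did), and the adjusted p was 1 for each. The median log2 difference was −0.66, against 0.04 over all probe sets. Without WT mouse 3 the differences split into 28 below 0 and 11 above, with a median of −0.14 against 0.11 over all probe sets, and again none passed (1.19% of all probe sets). When Tsc2+/- mouse 2 and WT mouse 2 were left out as well, the median was −0.16, a value that rests on 2 Tsc2+/- mice and 1 WT mouse and from which no call can be read. That all 39 genes lay below 0 therefore depended on 1 WT array, while 28 lay below 0 without it.

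The largest differences in Tsc2+/- blood belonged to genes that read high in that array. Rrm2, the regulated subunit of ribonucleotide reductase, read 407, 651 and 533 in the 3 Tsc2+/- mice and 631, 818 and 2984 in the 3 WT mice. Its log2 difference was −1.15 (SE 0.61, limma adjusted p 1), and −0.46 (SE 0.26, adjusted p 0.731) without WT mouse 3. The groups overlapped, with Tsc2+/- mouse 2 above WT mouse 1. Cdk1 read 327, 530 and 408 in Tsc2+/- blood and 380, 624 and 2616 in WT blood, a difference of −1.04 (SE 0.73) that became −0.24 (SE 0.32). Top2a read 600, 1147 and 836 in Tsc2+/- blood and 958, 881 and 5802 in WT blood, a difference of −1.03 (SE 0.78) that became −0.14 (SE 0.31). For both, Tsc2+/- mouse 2 stood above at least 1 WT mouse. The 3 smallest differences were those of Cdt1 and E2f1 at −0.19 each and of Nusap1 at −0.27.

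In blood 7 genes had no overlap between the groups, each lower in Tsc2+/- mice, where 2.02% of all probe sets were non-overlapping in that direction. Mki67 read 1019, 1501 and 1500 in Tsc2+/- blood and 1714, 1554 and 3873 in WT blood (−0.72, SE 0.4). Cenpf, a kinetochore protein, read 154, 191 and 196 in Tsc2+/- blood and 242, 238 and 456 in WT blood (−0.73, SE 0.3). WT mouse 3 was the highest in both, and WT mouse 2 lay only slightly above the highest Tsc2+/- mouse for Mki67. The others were Ccnb2, a mitotic cyclin (−0.83), Mcm2 and Mcm6 of the licensed helicase (−0.56 and −0.65), Kif23 (−0.63) and Birc5 (−0.55). The exact two-sided permutation p was 0.1 for each, which is the smallest that 3 mice against 3 allow. Without WT mouse 3, Ccne2 had the largest difference of the 39, at −0.63 (SE 0.28), with 704, 1074 and 1127 in Tsc2+/- blood against 1703 and 1271 in the remaining WT blood.

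**Figure D3:**
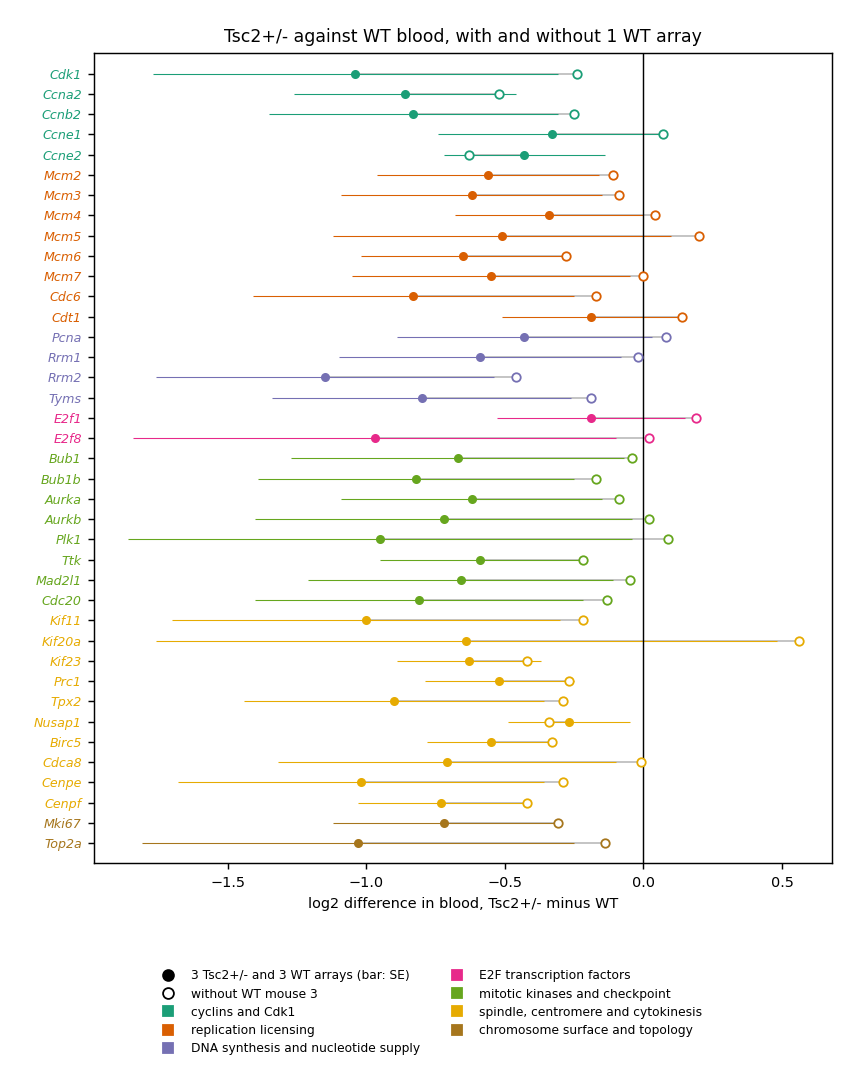
Log2 difference in blood, Tsc2+/- minus WT, for each of the 39 genes with all 6 mice and without WT mouse 3; bars are standard errors from limma for the fit with all 6 mice. With all mice every point lies below 0 (median −0.66), and without WT mouse 3 the points lie on both sides of 0 (median −0.14).

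In cerebellum 1 gene passed between Tsc2+/- and WT mice (1.12% of all probe sets in either direction, 0.357% higher). Cenpf read 76.8, 75.6 and 63.5 in Tsc2+/- cerebellum and 54.5, 43 and 49.3 in WT cerebellum, so that every Tsc2+/- mouse lay above every WT mouse. The difference was 0.56 (SE 0.15, unadjusted p 0.00824, adjusted p 0.867 in limma), in the opposite direction to its value in blood. It did not pass in 4 of the 6 fits that left out 1 mouse, where p ranged up to 0.0354. In the other direction 5 genes were non-overlapping and lower in Tsc2+/- cerebellum (7.19% of all probe sets lower and 3.07% higher): Ccna2 (−0.56), Cdt1 (−0.38), Prc1, which crosslinks midzone microtubules (−0.34), Top2a (−0.27) and Mcm7 (−0.15), none called. Top2a read 37.1, 36.3 and 37.6 in Tsc2+/- cerebellum and 45.9, 45.4 and 43 in WT cerebellum, with little spread within either group. The next largest positive differences were those of Bub1b (0.4) and Cdca8 (0.31), neither called and both with overlap between the groups. Mki67 differed by −0.14 and Cdk1 by 0.13. The median over the 39 genes was −0.1, against −0.02 over all probe sets. The red cell genes summed to 4473 to 6045 in Tsc2+/- cerebellum and 4699 to 5601 in WT cerebellum. Choroid plexus genes varied from 577 to 15236 within these 6 mice, and their part in these values was not tested.

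With both tissues in 1 fit, Kif23 was the gene that passed, lower in Tsc2+/- mice by 0.53 on the log2 scale (SE 0.16, adjusted p 0.999 in limma; 0.436% of all probe sets passed in either direction, 0.217% lower). It read 743, 778 and 1065 in Tsc2+/- blood against 1175, 1099 and 1768 in WT blood, and 19.5, 23.2 and 19.9 in Tsc2+/- cerebellum against 30.6, 21.4 and 32.8 in WT cerebellum. The groups did not overlap in blood and did so in cerebellum through WT mouse 2. Without the blood array of WT mouse 3 the difference was −0.42 with an unadjusted p of 0.0139 in limma, and no gene passed (0.605% of all probe sets).

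None of the 39 genes passed the threshold between Fmr1-KO and WT mice in either tissue. In blood 0.582% of all probe sets passed and in cerebellum 0.197%, and with both tissues in 1 fit 0.304%. At an unadjusted p under 0.05 in limma, the count was 1 gene in blood (3.5% of all probe sets), 2 in cerebellum (1.66%) and 1 in the joint fit (2.73%). The median difference was 0.01 in blood, against −0.07 over all probe sets, and 0.11 in cerebellum, against 0.02. No gene was without overlap in blood (0.132% of all probe sets were so and higher, 0.43% lower) or in cerebellum (0.107% higher and 0.25% lower).

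Cdc6, which loads the helicase, had the largest difference in Fmr1-KO blood. It read 162, 137, 126, 149 and 212 in the 5 Fmr1-KO mice and 121, 107, 95.4, 143 and 104 in the 5 WT mice, a log2 difference of 0.45 (SE 0.17, unadjusted p 0.0231, adjusted p 0.955 in limma). All 5 Fmr1-KO mice lay above 4 of the WT mice, and the groups overlapped through WT mouse 4. Kif11, the motor that separates the spindle poles, and Prc1 followed at 0.27 (SE 0.23) and 0.2 (SE 0.27), and the most negative differences were those of Mcm7 (−0.26, SE 0.14), Cdt1 (−0.21, SE 0.15) and E2f1 (−0.18, SE 0.12). Mki67 gave −0.16 (SE 0.11), Top2a 0.14 (SE 0.17) and Cdk1 0.02 (SE 0.19). None of these was called.

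In Fmr1-KO cerebellum Cenpf and Cdk1 had the largest positive differences among the genes with a mean log2 intensity of at least 6 in one of these cerebellum groups. Of the dimmer genes, Ccna2 gave 0.55 (SE 0.3) and Tpx2 −0.28 (SE 0.22), neither called. Cenpf read 96, 72.4, 63.4, 70.1 and 81.6 in Fmr1-KO cerebellum and 55.2, 40.5, 52.1, 67.2 and 67.8 in WT cerebellum (0.45, SE 0.17, unadjusted p 0.0244 in limma). Cdk1 read 130, 100, 91.5, 80.4 and 103 in Fmr1-KO cerebellum and 62.1, 62.6, 86.9, 86.6 and 86.2 in WT cerebellum (0.39, SE 0.16, unadjusted p 0.0369 in limma). For both genes 4 of the 5 Fmr1-KO mice lay above every WT mouse, and the adjusted p was 0.999. Ccnb2 followed at 0.37, and Ccne2 (−0.22), Rrm1 (−0.18) and Tyms, the thymidylate synthase (−0.18), gave the most negative ones. Mki67 and Top2a differed by 0.14 and 0.03. Bub1 gave 1.02 (SE 0.6), with 76.4 in Fmr1-KO mouse 1 and 7.85 to 11.5 in the other 4 Fmr1-KO mice. This mouse also had the highest cerebellum median of the 39 genes (123) and of all probe sets (257), and its neutrophil, T cell and B cell genes summed to 2320, 800 and 455, against at most 1369, 648 and 303 in the other Fmr1-KO mice. The part of that in its values was not tested.

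The effect of Tsc2 loss was set against that of Fmr1 loss in 1 fit per tissue. In blood only Birc5 passed, with a difference of −0.69 between the effects (SE 0.22, unadjusted p 0.00884, adjusted p 1 in limma; 0.509% of all probe sets passed in either direction, 0.0703% lower and 0.439% higher). Birc5 read 230, 218 and 250 in Tsc2+/- blood against 307, 277 and 460 in Tsc2 WT blood, and 427, 356, 381, 381 and 457 in Fmr1-KO blood against 332, 370, 433, 355 and 327 in Fmr1 WT blood. The Tsc2+/- mice lay below all of their WT mice, while the Fmr1 groups overlapped. Without Tsc2 WT mouse 3 it gave −0.47 (p 0.0231 in limma) and no gene passed (1.01% of all probe sets). In cerebellum no gene passed (0.487%), and 1 gene had an unadjusted p under 0.05 in limma (2.23%).

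Between the WT mice of the 2 experiments, 3 of the 8 licensing genes passed as higher in Tsc2 WT blood than in Fmr1 WT blood. These were Mcm3, Mcm4 and Cdt1, and Nusap1 passed as lower (12% of all probe sets passed in either direction, 9.43% higher and 2.55% lower), with adjusted p between 0.0675 and 0.0751 in limma. Calls of higher level were thus no more frequent among the 39 genes than over the array. Mcm3, a ring subunit, read 326, 322 and 960 in Tsc2 WT blood and 204, 127, 184, 170 and 139 in Fmr1 WT blood, a difference of 1.52 (SE 0.39). Cdt1, which brings the ring to the origin, read 796, 880 and 1682 in Tsc2 WT blood and 630, 535, 564, 552 and 467 in Fmr1 WT blood, a difference of 0.95 (SE 0.26). Neither gene overlapped between the WT groups, with or without mouse 3. Mcm4 differed by 1.09 (SE 0.29). Nusap1 read 3936, 2944 and 2956 in Tsc2 WT blood and 5081, 5300, 5370, 5571 and 4428 in Fmr1 WT blood, a difference of −0.66 (SE 0.15). All 3 Tsc2 WT mice lay below all 5 Fmr1 WT mice.

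In all, 11 genes were non-overlapping and higher in Tsc2 WT blood (18.3% of all probe sets), and 1, Nusap1, was non-overlapping and lower (5.77%). The 11 were Mcm2 to Mcm7, Cdt1, Pcna, Rrm1, Ccne1 and Plk1, each with an exact permutation p of 0.018, the smallest that 3 against 5 mice allow. Plk1 had the largest difference, 2.35 (SE 0.75), with 331, 525 and 3616 in Tsc2 WT blood against 96.9 to 231 in Fmr1 WT blood. Kif20a and Mcm5 followed at 2.01 and 1.63, neither called. Mki67 gave 0.15 (SE 0.3), Top2a 1.02 (SE 0.61) and Cdk1 1.3 (SE 0.6), none called. The median over the 39 genes was 0.78, against 0.22 over all probe sets. Without Tsc2 WT mouse 3 it was 0.13 against 0.14, so that the genes as a group no longer stood off the array's median, while all 8 licensing genes stayed above 0 with a median of 0.62. Mcm3 (1), Mcm4 (0.71), Mcm5 (0.92) and Cdt1 (0.61) then passed as higher and none as lower (5.72% of all probe sets in either direction, 4.36% higher and 1.36% lower), with adjusted p between 0.16 and 0.169 in limma.

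The blood of the 2 experiments also differed in its cell markers. The red cell genes summed to 32170 to 48795 in the Tsc2 experiment and to 60763 to 79194 in the Fmr1 experiment, the platelet genes to 1633 to 32840 in the Tsc2 experiment and to 32612 to 39406 in the Fmr1 experiment. The T cell genes summed to 19439 to 48780 in the Tsc2 experiment and to 8937 to 14491 in the Fmr1 experiment. Strain, experiment and these shares of cells cannot be told apart. In cerebellum Bub1b, a checkpoint kinase, and Ttk, the kinase that recruits it, were lower in Tsc2 WT than in Fmr1 WT mice, by 0.92 (SE 0.25) and 0.47 (SE 0.14) on the log2 scale (1.29% of all probe sets passed in either direction, 0.908% lower; adjusted p 0.558 in limma). Bub1b read 45.6, 101 and 65.7 in Tsc2 WT cerebellum and 147, 127, 127, 98.5 and 142 in Fmr1 WT cerebellum. The groups overlapped for Bub1b through 1 mouse each and did not overlap for Ttk (2.45% of all probe sets lower), and Cdc20 was the gene without overlap in the higher direction, at 0.37 (2.53% higher). Mcm6 gave −0.86, Ccna2 0.77 and Cdt1 0.45, none called. Mki67, Top2a and Cdk1 gave 0.07, 0.04 and 0.11.

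Across mice the genes moved together in blood, far more with 1 array than without it, and hardly at all in cerebellum. After the mean of each group was subtracted, the median Pearson's r over all 741 pairs of the 39 genes was 0.81 over 16 blood arrays, with 92.3% of pairs above 0, and 0.05 over 16 cerebellum arrays, with 53.6% above 0. Without Tsc2 WT mouse 3 the blood median was 0.37, with 84.5% of pairs above 0, and it was 0.4 over the 10 Fmr1 blood arrays alone. These are descriptions over arrays that share a normalization, and no median r for other probe sets is given beside them. Nusap1 and Ccne2 departed from the rest in the full set, with a median r of −0.17 and −0.22 with the other genes, and gave 0.13 and 0.43 without that mouse.

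**Figure D4:**
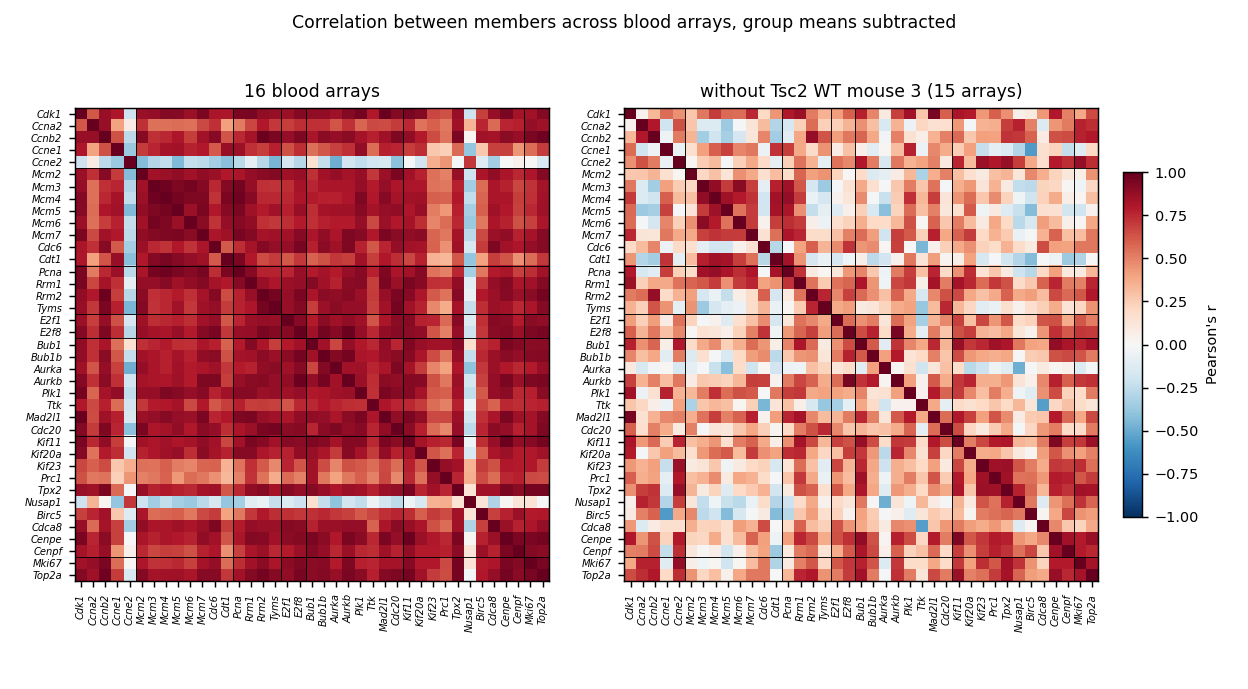
Pearson's r (colour) between each pair of the 39 genes over blood arrays, with the mean of each group subtracted, for all 16 arrays and for 15 without Tsc2 WT mouse 3; lines separate the roles. The left panel is nearly uniform apart from Ccne2 and Nusap1, and in the right panel a block of most licensing genes with Pcna stands out (median r over all pairs 0.81 and 0.37).

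Without that mouse the genes fell into smaller blocks. No clustering was run, and the pairs below were picked for their high r. Of the licensing genes, Mcm2 and Cdc6 had their highest r outside that role, with Rrm1 (0.58) and E2f8 (0.72). Mcm3 and Mcm6 had an r of 0.9, and Pcna and Mcm4 one of 0.88. Among the mitotic genes Cdk1 and Mad2l1, a checkpoint protein that holds back anaphase, had an r of 0.95, as did E2f8 and Aurkb, the kinase of the passenger complex. Kif11 and Cenpe, both motors of the mitotic spindle, had an r of 0.93, and Ccnb2 and Rrm2 one of 0.88. Mcm3 to Mcm6 ran slightly against the cyclins in the same arrays, with r from −0.36 to −0.01 for Ccna2 and from −0.35 to −0.17 for Ccnb2.

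In the Fmr1 experiment some of these genes ran with red cell or B cell marker genes, although the 39 as a whole did not. Their median r was 0.17 with the red cell genes and −0.11 with the B cell genes. Of the 7 marker lists, the thymocyte list had the largest median r, 0.34, with 34 of the 39 genes above 0. Over the 10 blood arrays, with group means subtracted, Ccnb2 had an r of 0.94 with the mean of the red cell genes (Spearman's rho 0.92, r 0.91 without the 2 arrays farthest from the median). Rrm2 had an r of 0.9 (rho 0.89, 0.84 without those 2) and Ccna2 one of 0.82 (rho 0.83, 0.85 without those 2). Tyms, Birc5 and Nusap1 had 0.8, 0.79 and 0.74. With the mean of the B cell genes Mcm5 had an r of 0.95 (rho 0.85, 0.84 without the 2 farthest). Cdt1 had 0.8 with them (rho 0.68, 0.62 without the 2 farthest), Pcna 0.74 and Mcm4 0.72, and the last pair fell to 0.46 and 0.38 without those arrays. Ccnb2 and Ccna2 ran the other way against the B cell genes, at −0.72 and −0.75. Other genes of the blocks had r between −0.26 and 0.33 with either list: Cdk1 and Mad2l1 gave 0.12 and 0.24 with the red cell genes, E2f8 and Aurkb 0.17 and 0.04, and Kif11 and Cenpe 0.24 and 0.3. Over the 6 Tsc2 blood arrays, WT mouse 3 included, the median r with the red cell genes was −0.85, with 2 of the 39 genes above 0, and that with the B cell genes was −0.25. In the same arrays it was 0.89 with the thymocyte genes, 0.75 with the T cell genes and −0.84 with the platelet genes. WT mouse 3 had the highest thymocyte sum and the lowest platelet sum of these 6 arrays. No median r without it is given, so these values cannot be told apart from the departure of that 1 array. The pairs named were picked for their high r among all 39 genes against 7 marker lists, the arrays share their normalization, and no p is given. In the Fmr1 arrays the highest r of a single gene was 0.88 with the T cell genes and 0.87 with the platelet genes.

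**Figure D5:**
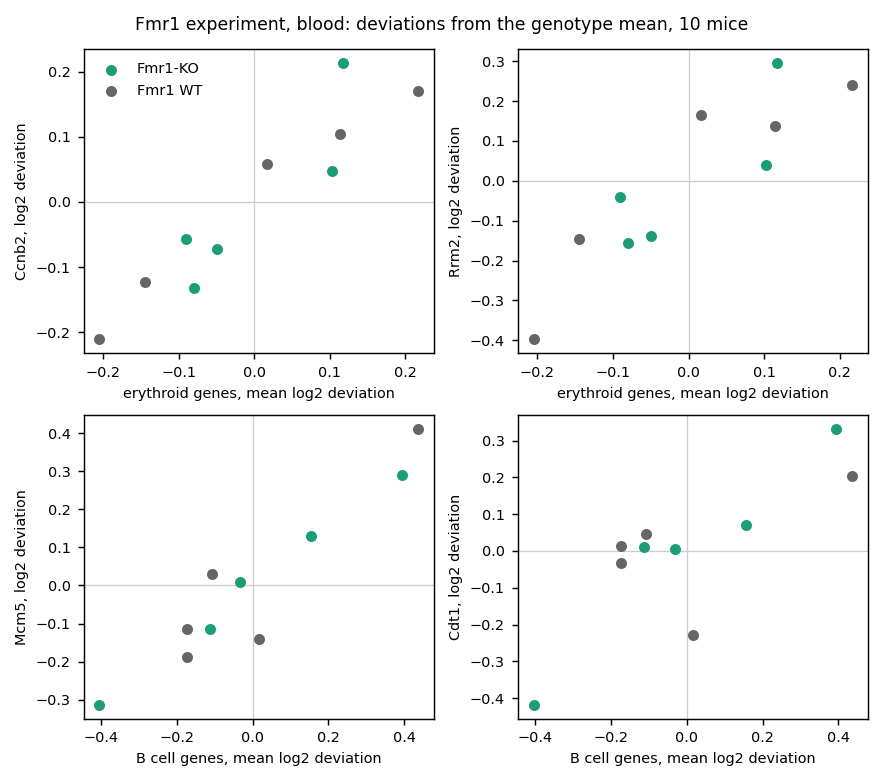
Deviation of a gene's log2 intensity from its group mean (vertical axis) against that of the red cell or B cell gene mean (horizontal axis), 1 point for each of the 10 blood arrays of the Fmr1 experiment. Ccnb2 and Rrm2 run with the red cell genes (r 0.94 and 0.9) and Mcm5 and Cdt1 with the B cell genes (r 0.95 and 0.8).

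Other genes of the cell cycle, 107 measured of 112 listed, were set beside the 39. In the Fmr1 experiment 60 of them were lower and 23 higher in cerebellum than in blood (18.2% and 46.1% of all probe sets), and in the Tsc2 experiment 71 were lower and 6 higher (22.7% and 27.9%). Their median difference was −0.62 in the Fmr1 experiment, against −1.25 in the Tsc2 experiment, closer to 0 than the −1.8 and −2.5 of the 39 genes. Leaving out the blood array of Tsc2 WT mouse 3 gave 75 lower and 9 higher (22.1% and 29.2% of all probe sets). The median was then −0.98. Among those higher in cerebellum of the Fmr1 experiment were Cdc7, a kinase that fires origins (2.65), and E2f6 and E2f5, repressive E2F factors (2.05 and 1.79). None was called between genotypes in blood or cerebellum of either model. In blood of Tsc2 WT against Fmr1 WT mice 9 of the 107 were higher and 5 lower, beside 9.43% and 2.55% of all probe sets. The 3 called with the largest positive difference were Myc, a transcription factor that drives growth, and Fbxo5, an inhibitor of the anaphase-promoting complex, at 1.73 each and Wee1, which restrains Cdk1, at 1.62. Without Tsc2 WT mouse 3 the counts there were 10 higher and 3 lower, beside 4.36% and 1.36% of all probe sets.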

How the data were processed

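Total RNA was hybridised to 32 Affymetrix Mouse Gene ST 1.0 arrays. Values were deposited as linear intensities, which the authors made by normalizing all arrays together at the probe level with a quantile method and summarising probe sets with PLIER (run in Affymetrix Power Tools, versions not given), which can shift levels between tissues. Of the 35556 probe sets, the platform annotation named 1 gene for 21789, more than 1 for 1621 and no gene for 12146. Log2 intensities without an offset were fitted over all probe sets with limma 3.58.1 (lmFit and eBayes, R 4.3.3), within a tissue by genotype, over both tissues with a tissue term, and with an interaction for the models. A gene was called at an unadjusted p under 0.01, the study's threshold, with the Benjamini-Hochberg adjusted p beside it. Exact permutation tests over mice were run for single genes. Correlations and promoter counts used Python 3.11.15, pandas 2.3.3, numpy 2.4.6 and scipy 1.17.1. The fit was tested on simulated data.

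Mice of a group are the replicates, and their number limits the precision. The methods state that blood and cerebellum were taken from the same mice. That a shared number in the labels of a genotype marks the same mouse was assumed, and a fit with mouse as a block was run. Alternatives were an offset of 16, quantile normalization within tissue, centring, a filter on dim probe sets, an intensity trend, all 32 arrays in 1 fit, the mean over a gene's probe sets, the methods' t-test and leaving out mice. Genes named include those called and those without overlap. For some comparisons they also include the 3 largest differences each way at a mean log2 intensity of at least 6 in a compared group. Mki67, Top2a and Cdk1 are given for most comparisons within a tissue. Genes and lists were chosen with earlier results of these data known, and the thymocyte and thymic epithelium lists after their values were seen.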

Additional observations from a re-analysis of the deposited data

Results flagged for a closer look

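A single mouse lay far from the other 4 of its group, by Dixon's ratio, for 9 of the 156 groups of gene, tissue and genotype tested in the Fmr1 experiment, and chance alone gives about 1 in 20. In Fmr1-KO cerebellum, mouse 1 read 489 for Ccne1 (328 to 347 in the others), 303 for Mcm7 (501 to 564) and 76.4 for Bub1 (7.85 to 11.5), and mouse 2 read 28.9 for Prc1 (39.2 to 42.1). In Fmr1 WT cerebellum, mouse 1 read 572 for Ccne1 (297 to 350 in the others), 380 for Mad2l1 (223 to 246), 84.9 for Kif20a (122 to 141) and 59.2 for Tpx2, which activates Aurora A (30.8 to 32.6). In Fmr1-KO blood, mouse 5 read 1147 for Top2a (842 to 899 in the others). Groups of 3 mice were too small for this ratio. The genotype effect on Birc5 in blood differed between the Tsc2 and Fmr1 models by −0.69 in the interaction fit.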

How the results depend on the processing

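Of 399 alternative values for 26 results over all 39 genes, 326 stayed near the main value. Near meant a count within a fixed ratio, a median within the spread between mice of a group, or a correlation within a fixed margin. Direction was not part of this rule, and the rule is loose where mice vary widely, as in Tsc2 WT blood. For single named genes 1290 of 1393 alternatives kept direction and call, and 1 turned: with the mean over both probe sets, Top2a was higher in cerebellum than in blood of the Fmr1 experiment by 2.48. Causes were not tested. For most alternatives the share of all probe sets that passed was not worked out, so the counts below cannot be set against the array. Between Tsc2+/- and WT blood, 3 genes were called with all 32 arrays in 1 fit. Between Tsc2+/- and WT cerebellum, 0 were called with 16 added, an intensity trend, all 32 arrays, or an adjusted p, and 0 to 2 with 1 mouse left out. Over both tissues, Tsc2+/- against WT gave 0 with 16 added, an adjusted p or without the blood array of WT mouse 3, 2 with quantile normalization, centring or all 32 arrays, and 0 to 2 with 1 mouse left out. The median difference of cerebellum and blood in the Fmr1 experiment was −1.62 with 16 added, −2 with quantile normalization and −2.35 with centring. Between Tsc2 WT and Fmr1 WT blood, the count of 4 became 10 with 16 added, 2 with quantile normalization, 7 without dim probe sets, 11 with a trend, 18 with all 32 arrays, 0 with an adjusted p or the methods' t-test, 0 without Tsc2 WT mice 2 and 3 (a group of 1 mouse, assumed to vary like the Fmr1 WT mice, so the loss of calls says little), and 1 to 10 with 1 mouse left out. In cerebellum of the same mice it became 1 with 16 added, quantile normalization, centring or a trend, 0 with an adjusted p or the t-test, and 0 to 3 with 1 mouse left out. Between the 2 genotype effects in blood it became 0 with 16 added or an adjusted p, 3 with quantile normalization or centring, and 0 to 3 with 1 mouse left out, and in cerebellum 0 to 2. The median difference between Tsc2+/- and WT blood was −0.95 to −0.14 with 1 mouse left out. The median correlation in blood was 0.37 without Tsc2 WT mouse 3 and 0.4 in the Fmr1 experiment alone, an alternative chosen after seeing the data, as were those without several mice.

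Same-numbered mice of different genotype or experiment are different animals. Their deviations correlated at −0.29 to 0.46, the highest being 0.46 and 0.39 for mice 1 and 3 of Tsc2 cerebellum. Differently numbered mice were not compared, so whether mice of the same number have anything in common was not tested. With the replicate block, 0 genes were called between Tsc2+/- and WT cerebellum and 0 between Tsc2 WT and Fmr1 WT mice in either tissue. With mouse as a block for the 2 tissues, 35 genes were called between cerebellum and blood in each experiment, and it changed no other count. For both kinds of block the share of all probe sets that passed was not worked out. These counts therefore cannot be set against the array.

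With 3 mice a group, and 1 WT blood array unlike the rest, the Tsc2 blood comparison cannot fix a size or direction for these genes. Cerebellum values near the bottom of the scale, as for Bub1, E2f8, Mki67 and Nusap1, can be imprecise, though the SE of Nusap1 was small. The arrays give no count of cells.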
